A study of Mus musculus with 12 samples.

Results

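The genes described here encode the subunits, activators, inhibitor and assembly chaperones of the proteasome, measured by RNA-seq in mouse B cell acute lymphoblastic leukemia (B-ALL) cells treated with LY2090314, a small-molecule inhibitor of GSK3. They were chosen by name, as the genes whose symbol starts with *Psma*, *Psmb*, *Psmc*, *Psmd*, *Psme*, *Psmf* or *Psmg* followed by a digit. Of 41444 genes in the table, 50 matched, and 48 of these reached a mean of at least 3 on the log2 scale of the values and were analyzed. *Psma8*, the testis form of an alpha subunit, was listed at 0, and *Psmb11*, the catalytic subunit of the thymus, had a mean of −0.74, so neither was carried further. The name also took in *Psmc3ip*, which encodes a cofactor of meiotic recombination and no proteasome subunit, and *Psme2b*, a near copy of *Psme2* on chromosome 11 whose reads may be shared with *Psme2*. The other 46 genes are known parts or helpers of the proteasome.

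The proteasome degrades proteins that carry ubiquitin chains. Its 20S core is a barrel of alpha and beta rings in which a few of the beta subunits cut peptide bonds, and the 19S particle on its ends binds ubiquitin, unfolds the protein with a ring of ATPases and removes the chains with subunits of its lid. In B-ALL cells the pathway bears on the question of the study, since β-catenin is phosphorylated by GSK3β, marked with ubiquitin by an SCF ligase and destroyed by the proteasome. Lymphoid cells also express the immunoproteasome, in which other catalytic subunits take the place of the constitutive ones and change the peptides that are made for presentation on MHC class I.

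All cells were bone marrow pre-B cells of *Ctnnb1* fl/fl mice, expanded in culture with IL7, transformed by retrovirus with the *BCR*–*ABL1* oncogene and kept without IL7 thereafter. They carried the ERT2 vector, which lacks Cre, so that the floxed *Ctnnb1* alleles encoding β-catenin were left intact, and all received 1 µM 4-OHT for 2 days. The control group (3 libraries, labeled ERT2) received nothing else, and the treated group (3 libraries, labeled ERT2_Ly) also received 40 nM LY2090314 for 1 day. A figure legend of the study counts the ERT2 cells as biological replicates from separate mice and gives a time of LY2090314 shorter than the day on the labels. The labels themselves do not name separate mice or cultures, in the absence of which the p-values measure the spread between these libraries, which may in part be technical. Cells with the Cre-ERT2 vector were not analyzed here.

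The values were rlog values, which are log2 read counts scaled for library size, with genes of few reads drawn toward their own mean. Differences of genes with few reads are therefore understated. Each gene was tested with limma in a fit over all 11536 genes that reached the limit, and a gene is said to have risen or fallen where its adjusted p was under 0.05. A pair of the treated libraries shared the library number 14 with the letters A and B, the remaining one had the number 15, and the SD of the 14A-to-14B difference across all genes was 0.186, against 0.253 for either of them with 15 and 0.185 to 0.239 for pairs of control libraries. Over the proteasome genes it was 0.0711 for 14A with 14B and 0.146 and 0.124 for 14A and 14B with 15. Whether 14A and 14B are repeat libraries of the same sample is not given, and results that change when they count as 1 sample are given with that value. Of 8 pre-B cell markers all were expressed, and 7 fell with LY2090314 (summed log2 level 16.25 to 16.28 in control and 15.64 to 15.79 in treated libraries). Of 3 plasma cell markers 2 rose and 1 fell (11.32 to 11.43 against 12.60 to 12.63). Of 6 myeloid markers 1 rose, *Mpo*, *Elane* and *S100a8* were at 0, and the summed level was 5.78 to 5.99 against 6.36 to 6.48. No marker of T cells, erythroid cells or stroma reached the limit, and *Cd3e*, *Cd3d*, *Cd3g*, *Cd4*, *Cd8a*, *Trbc2*, *Hba-a1*, *Hbb-bs*, *Col1a1*, *Col1a2* and *Pdgfrb* were at 0 or below. The part of the B-lineage marker changes in the proteasome values was not tested, and in bulk RNA fewer cells of a type and less RNA per cell cannot be told apart. *Myc* was at 11.84, 11.77 and 11.76 in control and 9.15, 9.17 and 9.13 in treated libraries.

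The promoters of the gene with the largest rise, *Psme4*, and of the gene with the largest fall, *Psmg1*, are shown because these 2 genes moved farthest in opposite directions. *Psme4* encodes PA200, a nuclear activator that caps the 20S core, and *Psmg1* encodes PAC1, a chaperone for assembly of the alpha ring. Each window holds 250 bases before and 50 bases after the start of the RefSeq transcript on GRCm38.p6, written 5′ to 3′ on the strand of the gene, at chr11:30771525-30771824 (plus strand) for *Psme4* and chr16:95990911-95991210 (minus strand) for *Psmg1*. Capitals mark the only match in either window to the 4 motifs listed after the sequences, the antioxidant response element core at base 244 of the *Psme4* window, which reads TGACNNNGC on the opposite strand.
Psme4: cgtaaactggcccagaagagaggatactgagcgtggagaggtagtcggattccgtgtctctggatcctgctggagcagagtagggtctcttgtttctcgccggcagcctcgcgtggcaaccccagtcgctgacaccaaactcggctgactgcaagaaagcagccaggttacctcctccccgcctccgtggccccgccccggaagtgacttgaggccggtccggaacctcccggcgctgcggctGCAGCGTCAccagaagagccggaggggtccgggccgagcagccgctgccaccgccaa
Psmg1: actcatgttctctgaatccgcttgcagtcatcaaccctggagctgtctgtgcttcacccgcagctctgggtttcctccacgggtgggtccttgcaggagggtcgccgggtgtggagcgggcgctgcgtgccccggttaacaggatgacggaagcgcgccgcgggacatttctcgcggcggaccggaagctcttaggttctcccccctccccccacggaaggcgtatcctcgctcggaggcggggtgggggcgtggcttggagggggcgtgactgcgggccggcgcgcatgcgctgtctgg
Both windows were rich in G and C, with 65.3% and 25 CpG dinucleotides for *Psme4* and 67.7% and 30 CpG dinucleotides for *Psmg1*. RefSeq windows were at hand for 41 of the 48 genes, there were 32851 windows in all, and both strands were searched. Proteasome genes were counted per gene, with a match in any window of the gene, and the background per window, so that the shares below are not in like units. The antioxidant response element core TGACNNNGC, the site type read by the NRF1 and NRF2 transcription factors, was present in 6 of the 41 genes (*Psmb5*, *Psmb6*, *Psmc6*, *Psmd12*, *Psmd9* and *Psme4*), or 14.6%, against 12.4% of all windows. The E box CACGTG, to which MYC and related factors bind, was present in 4 (9.76% against 7.15%), the CCAAT box CCAAT in 14 (34.1% against 37.4%) and the TCF/LEF core CTTTGA in 6 (14.6% against 16%). A match is a stretch of letters and not a measured site.

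Proteasome transcripts were on balance modestly lower after LY2090314. Of the 48 genes, 29 fell (60.4%, against 25.3% of all genes tested) and 1 rose (2.08% against 24.8%), whereas 18 did not pass the threshold. Log2 differences were negative for 46 genes and positive for 2. Their median was −0.26, or 83.3% of the control level, against a median of 0.01 over all genes. The falls were small, with only 4 genes lower by at least 0.5. In size, the median change of the proteasome genes (0.27) was close to that of all genes (0.24), but the span from the tenth to the ninetieth percentile ran from −0.49 to 0.57 for all genes and from −0.47 to −0.06 for the proteasome genes. All 3 treated libraries lay below all 3 control libraries in 30 genes (62.5%, against 29.5% of all genes). The mean rlog values ran from 6.01 for *Psme2b* to 12.64 for *Psmd2*, and among the 7279 genes with a mean of at least 8 the share that fell was 30.5%. Leaving out *Psmc3ip* and *Psme2b*, 28 of 46 fell. Exons of *Psmb5*, *Psmd1*, *Psmg3* and *Psme2b* overlap another annotated gene on the same strand. Those of *Psma4*, *Psma5*, *Psmb7*, *Psmb8*, *Psmb9*, *Psmc3*, *Psmc3ip*, *Psmd1*, *Psmd3*, *Psmd9*, *Psmd13* and *Psme1* overlap a gene on the other strand, where reads may be shared if the counting did not use strand. The genes were chosen by name with earlier results of these data known, so that these counts are given without a test over the list.

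**Figure D1:**
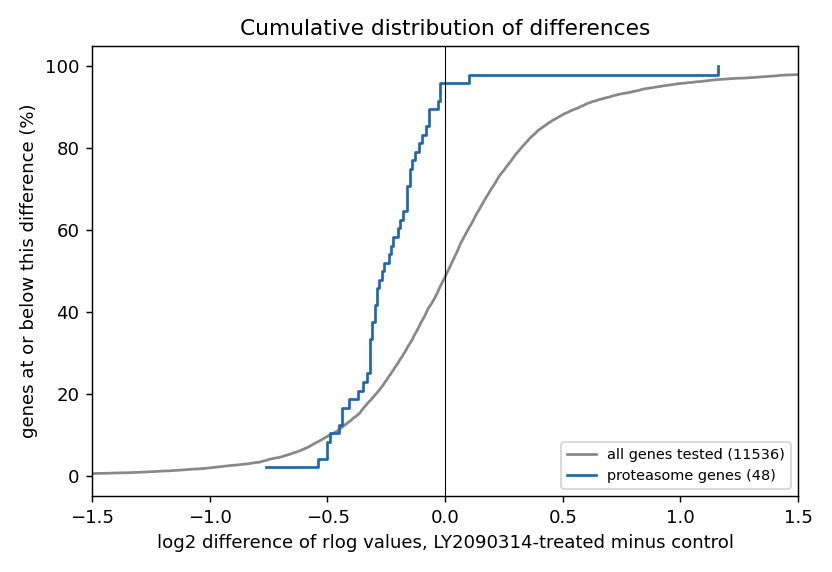
Cumulative share of genes (vertical axis, percent) at or below each log2 difference between LY2090314-treated and control cells (horizontal axis, cut at −1.5 and 1.5), for the 48 proteasome genes (blue) and all 11536 genes tested (gray). The blue curve climbs almost wholly to the left of 0, with a median of −0.26 against 0.01, and its last step on the far right is *Psme4*.

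Of the genes chosen by name, 31 encode constitutive subunits of the 20S core and 19S particle. Of these 31, 22 fell (71%, against 25.3% of all genes), 0 rose and 9 did not pass the threshold. The 19S subunits *Adrm1* and *Sem1*, which have other names, are not among the 31 and are given with the wider pathway. All 31 had a negative difference, from −0.49 for *Psma7* to −0.02 for *Psma2*, with a median of −0.29. Among the 31, the 14 subunits of the 20S core (9 fell, median −0.27) and the 17 of the 19S particle (13 fell, median −0.30) had similar values. Averaged over the 31 subunits, the control libraries were at 11.48, 11.51 and 11.63 and the treated libraries at 11.22, 11.23 and 11.39 (11.54 ± 0.079 against 11.28 ± 0.098, mean ± SD, n = 3). The highest treated library thus lay below the lowest control library by less than the range within either group.

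**Figure D2:**
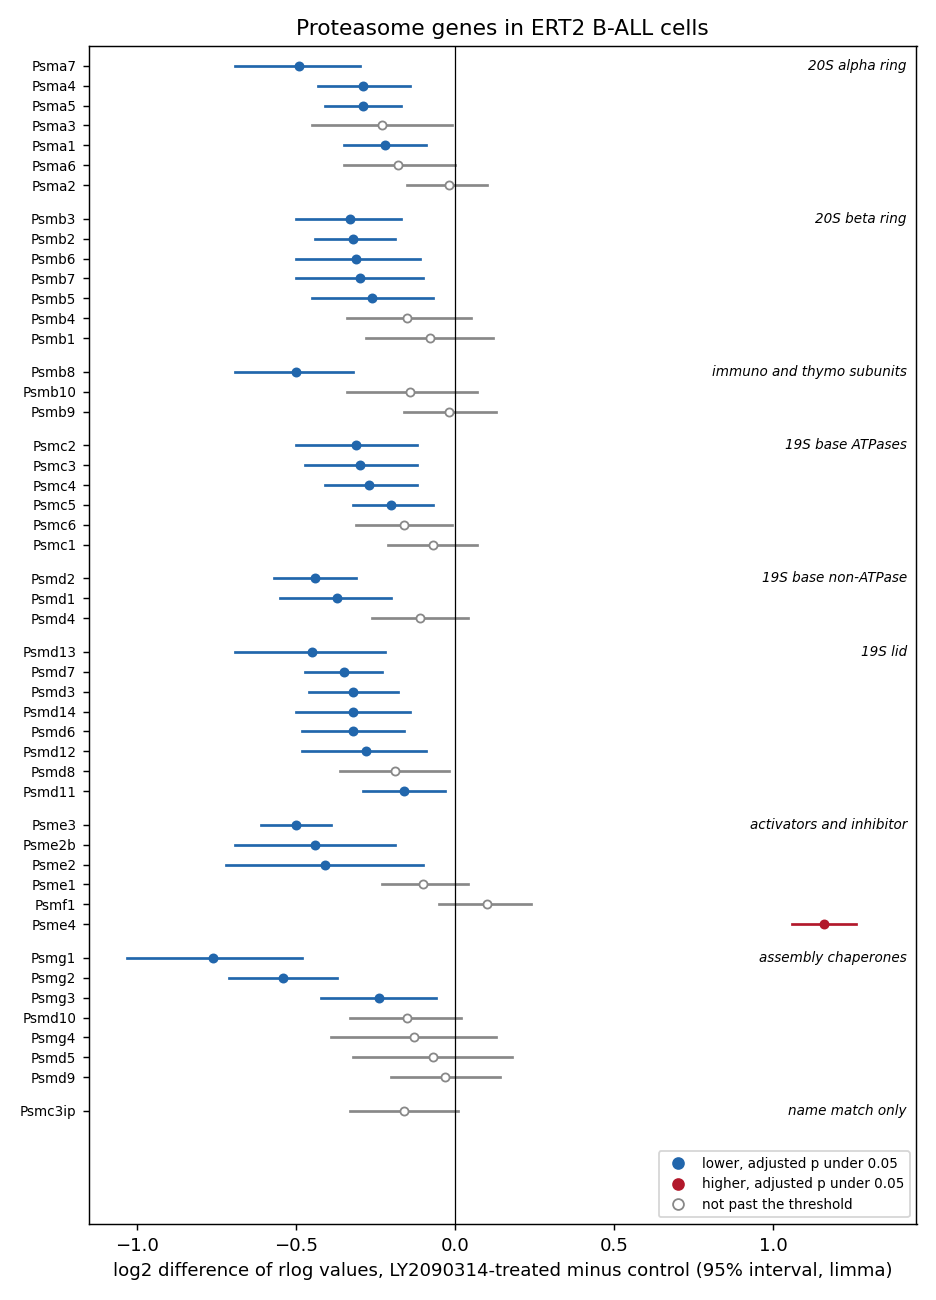
Log2 difference of each of the 48 proteasome genes between LY2090314-treated and control cells (horizontal axis, point) with its 95% interval from limma (bar), grouped by role (n = 3 libraries a group). Blue points fell, the red point rose and open gray points did not pass the adjusted p of 0.05, and *Psme4* at 1.16 is the only gene to the right with an interval clear of 0.

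The alpha subunits form the outer rings of the core and the gate through which substrates enter. Of 7, 4 fell (57.1%, against 25.3% of all genes), with a median of −0.23. *Psma7*, which encodes subunit α4 (chromosome 2, 180036374 to 180042433, minus strand, GRCm38), had control values of 11.71, 11.80 and 11.94 and treated values of 11.23, 11.26 and 11.48. All treated values lay below the control values, and *Psma7* fell to 71.1% of control (log2 difference −0.49, SE 0.084, adjusted p = 0.0019, limma). *Psma4* and *Psma5* each had a difference of −0.29, and *Psma1* of −0.22. *Psma2* (−0.02), *Psma3* (−0.23, adjusted p = 0.079, limma) and *Psma6* (−0.18, adjusted p = 0.089) did not pass the threshold. Without treated library 14A the call of *Psma1* was lost (adjusted p = 0.052, limma), and without treated library 15 *Psma3* (−0.33, adjusted p = 0.0072) and *Psma6* (−0.25, adjusted p = 0.011) passed. *Psma6* also passed with quantile normalization (−0.20, adjusted p = 0.045).

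The inner beta rings hold the proteolytic sites. Of 7 constitutive beta subunits, 5 fell (71.4%, against 25.3% of all genes), with a median of −0.30. Those with the lowest values were *Psmb3* (−0.33, adjusted p = 0.0055, limma) and *Psmb2* (−0.32, adjusted p = 0.0018), both structural subunits without a catalytic site. *Psmb4* (−0.15) and *Psmb1* (−0.08) did not pass the threshold, and their groups overlapped, although *Psmb4* passed without treated library 15 (−0.23, adjusted p = 0.016).

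Among the beta subunits, *Psmb6*, *Psmb7* and *Psmb5* encode the catalytic subunits β1, β2 and β5, with caspase-like, trypsin-like and chymotrypsin-like activity. *Psmb5*, the main target of the drug bortezomib, was at 10.70, 10.82 and 10.96 in control and 10.53, 10.47 and 10.69 in treated libraries. The highest treated and the lowest control library nearly touched, and the fall to 83.4% was near the threshold (log2 difference −0.26, SE 0.083, adjusted p = 0.031, limma). *Psmb6* was at 10.97, 11.07 and 11.22 in control and 10.71, 10.71 and 10.92 in treated libraries, a fall to 80.8% (−0.31, SE 0.083, adjusted p = 0.017). *Psmb7* was at 11.55, 11.58 and 11.76 in control and 11.22, 11.27 and 11.50 in treated libraries, a fall to 81.3% (−0.30, SE 0.088, adjusted p = 0.023). Control and treated libraries did not overlap in any of these genes, but in all of them the gap between the groups was smaller than the spread within a group. These calls rested on few libraries. That of *Psmb5* was lost without control library 2 (adjusted p = 0.076, limma) or 3 (0.089) and without treated library 14A (0.087) or 14B (0.10). That of *Psmb6* was lost without 14A (adjusted p = 0.060) or 14B (0.057), and that of *Psmb7* without control library 3 (0.071), 14A (0.080) or 14B (0.074). With libraries 14A and 14B counted as 1 sample it was lost for *Psmb5* (adjusted p = 0.091), *Psmb6* (0.058) and *Psmb7* (0.077). *Psmb5* holds the microRNA gene *Mir686* on its own strand, and *Psmb7* overlaps an exon of *Nek6* on the other strand.

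Of the 3 immunoproteasome subunits 1 fell (33.3%, against 25.3% of all genes) and the other 2 did not pass the threshold, with a median of −0.14. *Psmb8*, which encodes LMP7 and replaces β5 (chromosome 17, 34197721 to 34201454, plus strand), was at 10.75, 10.89 and 11.05 in control and 10.37, 10.33 and 10.48 in treated libraries. It fell to 70.5% (log2 difference −0.50, SE 0.081, adjusted p = 0.0014, limma), among the largest falls of the proteasome genes. *Psmb9*, which encodes LMP2 and replaces β1 (chromosome 17, 34181987 to 34187764, minus strand), shares exon sequence with *Tap1* on the other strand. Its values were 9.79, 9.88 and 10.00 in control and 9.88, 9.89 and 9.86 in treated libraries, so that the treated values lay inside the control range (−0.02, 95% interval −0.16 to 0.13, adjusted p = 0.84). *Psmb10*, which encodes MECL-1 and replaces β2, was at 9.84, 9.77 and 10.08 in control and 9.66, 9.79 and 9.83 in treated libraries, again with overlap (−0.14, 95% interval −0.34 to 0.07, adjusted p = 0.24). The intervals of *Psmb9* and *Psmb10* do not exclude small changes in either direction. *Psmb8* overlaps an exon of *Gm20496* on the other strand.

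**Figure D3:**
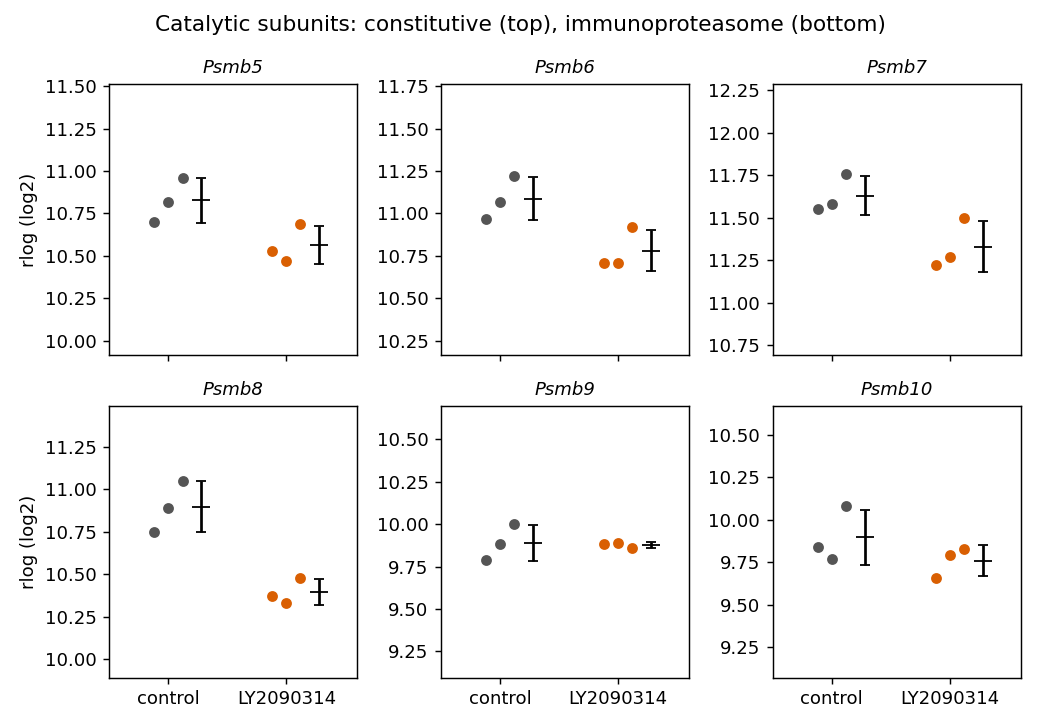
rlog values (vertical axis, log2) of the constitutive catalytic subunits (top) and the immunoproteasome subunits (bottom) in 3 control (gray) and 3 LY2090314-treated (orange) libraries, with mean ± SD beside the points and the same vertical span of log2 values in each panel. *Psmb8* falls most, at 70.5% of control, and the treated points of *Psmb9* sit within the control range.

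To compare each immunoproteasome subunit with the constitutive subunit it replaces, levels were taken per length of the longest coding transcript. The log2 values of each pair were then subtracted within each library. On this scale *Psmb8* minus *Psmb5* was −0.81, −0.78 and −0.76 in control and −1.01, −1.0 and −1.07 in treated libraries, so that the *Psmb8* level went from 58.1% to 49.1% of the *Psmb5* level. *Psmb9* minus *Psmb6* was −1.94, −1.95 and −1.98 in control and −1.59, −1.58 and −1.83 in treated libraries (25.8% and 31.5%). *Psmb10* minus *Psmb7* was −1.89, −2.00 and −1.86 in control and −1.74, −1.66 and −1.85 in treated libraries (26.5% and 29.7%). The balance within the pairs thus shifted toward the constitutive subunit for *Psmb8* (change −0.24) and toward the immunoproteasome subunit for *Psmb9* (0.29) and *Psmb10* (0.16), with no overlap of the groups in any pair, although for *Psmb10* the nearest libraries nearly touched, and with no test. These shifts do not depend on the length used, but the levels do. With the length of all annotated exons the control share was 28% for *Psmb8*, 22.3% for *Psmb9* and 60.2% for *Psmb10*, so that no order among the 3 pairs can be read from them.

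The 6 ATPases of the 19S base form the ring that unfolds substrates and threads them into the core. Of these, 4 fell (66.7%, against 25.3% of all genes), with a median of −0.23: *Psmc2* (−0.31, adjusted p = 0.015, limma), *Psmc3* (−0.30, 0.012), *Psmc4* (−0.27, 0.0083) and *Psmc5* (−0.20, 0.016). *Psmc6* (−0.16, adjusted p = 0.080) and *Psmc1* (−0.07) did not pass the threshold. The call of *Psmc2* was lost without control library 3, treated library 14A or 14B (adjusted p 0.050, 0.053 and 0.052, limma), that of *Psmc5* without 14A (0.060) or 14B (0.064), and both with these counted as 1 sample (0.052 and 0.059), and *Psmc6* passed without treated library 15 (−0.22, 0.0090). Of the 3 non-ATPase subunits of the base with a proteasome name, the scaffold subunits *Psmd2* (−0.44, adjusted p = 0.00041) and *Psmd1* (−0.37, adjusted p = 0.0048) fell. The ubiquitin receptor *Psmd4* had a difference of −0.11 and did not pass the threshold, except without treated library 15 (−0.16, adjusted p = 0.044). *Psmd2* was at 12.83, 12.84 and 12.93 in control and 12.39, 12.37 and 12.50 in treated libraries. Its groups were apart by more than the spread within either, and it fell to 73.5% of control.

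The 19S lid removes ubiquitin chains before degradation. Of its 8 genes with a proteasome name, 7 fell (87.5%, against 25.3% of all genes), with a median of −0.32. *Psmd13* had the lowest difference (−0.45, adjusted p = 0.0066, limma), followed by *Psmd7* (−0.35, adjusted p = 0.0010). *Psmd14*, which encodes the deubiquitinating subunit RPN11, was at 80.1% of control (−0.32, adjusted p = 0.0099), and its partner in the catalytic dimer is *Psmd7*. *Psmd3* and *Psmd6* had the same difference of −0.32, *Psmd12* of −0.28 and *Psmd11* of −0.16. *Psmd11* passed the threshold narrowly (adjusted p = 0.044) and lost its call in 9 of 15 alternatives, among them without control library 1, 2 or 3 and without treated library 14B or 15 (adjusted p from 0.053 to 0.13). *Psmd12* lost its call without control library 1 or 3 and without treated library 14A or 14B (adjusted p from 0.062 to 0.083). With 14A and 14B counted as 1 sample the adjusted p was 0.056 for *Psmd11* and 0.081 for *Psmd12* (limma). *Psmd8* was the exception in the lid and did not pass the threshold (−0.19, adjusted p = 0.061), but did without treated library 15 (−0.26, 0.010) and with quantile normalization (−0.20, 0.040).

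The activators moved in both directions. *Psme4* (chromosome 11, 30771726 to 30880361, plus strand), whose product PA200 activates the core without ubiquitin and is known for roles in histone degradation and DNA repair, was at 12.07, 12.01 and 12.04 in control and 13.20 in each of the 3 treated libraries. It was the only proteasome gene that rose, by 2.23-fold (log2 difference 1.16, SE 0.044, 95% interval 1.06 to 1.26, adjusted p = 6.8e-07, limma), and 3.25% of all genes tested had a larger rise. With 3 libraries against 3 an exact permutation test (two-sided) cannot give less than p = 0.10, which is what it gave for *Psme4*. *Psme3*, which encodes PA28γ, the other activator of the nucleus, moved the other way. Its values were 12.88, 12.84 and 12.85 in control and 12.32, 12.33 and 12.41 in treated libraries, a fall to 70.7% with a spread much smaller than the gap (−0.50, SE 0.046, adjusted p = 7.7e-05).

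*Psme1* and *Psme2* encode PA28α and PA28β, which form a joint ring that caps the core in the cytosol and is induced by interferon γ. *Psme1* was at 11.79, 11.83 and 11.91 in control and 11.69, 11.71 and 11.85 in treated libraries, with overlap (−0.10, 95% interval −0.23 to 0.04, adjusted p = 0.22, limma), and passed the threshold without treated library 15 (−0.14, adjusted p = 0.045). *Psme2* was at 10.92, 10.98 and 11.35 in control and 10.50, 10.64 and 10.89 in treated libraries, a fall near the threshold (−0.41, SE 0.13, adjusted p = 0.034). Control library 3 stood well above the other two for *Psme2*, and without it the difference was −0.28 (adjusted p = 0.082). The call was also lost without control library 2 (adjusted p = 0.050, limma) and without treated library 14A (0.11) or 14B (0.086), and with these counted as 1 sample (0.096). The difference between the changes of *Psme1* and *Psme2* was not tested. *Psme2b*, the near copy, had a difference of −0.44 (adjusted p = 0.011). *Psmf1*, which encodes the inhibitor PI31, had the only other positive difference (0.10, 95% interval −0.05 to 0.24, adjusted p = 0.24).

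**Figure D4:**
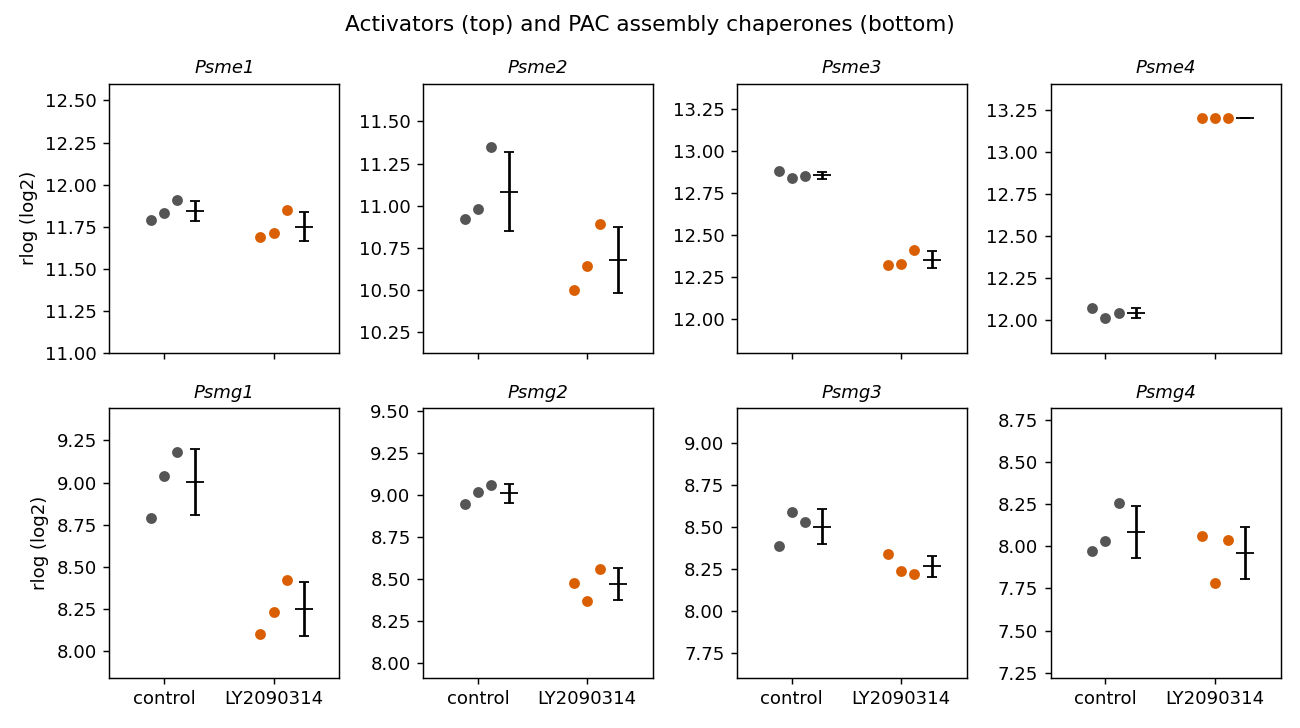
rlog values (vertical axis, log2) of 4 activator genes (top) and 4 chaperones of 20S assembly (bottom) in 3 control (gray) and 3 LY2090314-treated (orange) libraries, with mean ± SD beside the points and the same vertical span of log2 values in each panel. *Psme4* rises to 13.20 in all 3 treated libraries, whereas *Psme3*, *Psmg1* and *Psmg2* fall without overlap.

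The assembly chaperones held the 2 largest falls of the proteasome genes. PAC1 and PAC2, encoded by *Psmg1* and *Psmg2*, form a dimer on which the alpha ring is built. *Psmg1* (chromosome 16, 95979933 to 95990960, minus strand) was at 8.79, 9.04 and 9.18 in control and 8.10, 8.23 and 8.42 in treated libraries. It fell to 59.2% (log2 difference −0.76, SE 0.12, 95% interval −1.03 to −0.48, adjusted p = 0.0013, limma), and 3.87% of all genes tested had a larger fall. *Psmg2* was at 8.95, 9.02 and 9.06 in control and 8.48, 8.37 and 8.56 in treated libraries, a fall to 68.8% (−0.54, SE 0.073, adjusted p = 0.00055). Both genes of the dimer were therefore lower with no overlap between groups.

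The second dimer of 20S assembly consists of PAC3 and PAC4. *Psmg3* fell by 0.24 on the log2 scale (adjusted p = 0.035, limma), a call that was lost without control library 2 (0.13) or 3 (0.087) and without treated library 14B (0.096) or 15 (0.071), and with 14A and 14B counted as 1 sample (0.060), and *Psmg4* had a difference of −0.13 with overlapping groups (adjusted p = 0.36). The chaperones of the 19S base, *Psmd10* (−0.15), *Psmd5* (−0.07) and *Psmd9* (−0.03), did not pass the threshold, although *Psmd10* did without treated library 15 (−0.21, adjusted p = 0.033). In total 3 of the 7 assembly chaperones fell (42.9%, against 25.3% of all genes, or 30.5% at a mean of at least 8), with a median of −0.15. *Psmc3ip* had a difference of −0.16 (adjusted p = 0.11) and passed with quantile normalization (−0.23, adjusted p = 0.032).

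Within each group the proteasome genes moved together between libraries. Control library 3 was the highest control in 42 of 48 genes (87.5%, against 42.3% of all genes), and treated library 15 was the highest treated library in 40 of 48 (83.3%, against 43% of all genes). The mean of the 48 genes was 10.82, 10.86 and 10.97 in control libraries 1, 2 and 3 and 10.61, 10.61 and 10.74 in treated libraries 14A, 14B and 15 (10.88 ± 0.077 against 10.65 ± 0.077, mean ± SD, n = 3). The highest treated library (10.74) lay below the lowest control library (10.82) by less than the range within either group (0.15 and 0.13). The treated libraries were thus below the control libraries, with a gap of means of 0.23. Since the genes share this shift between libraries, their differences are not independent of each other, and the 29 falls are not 29 independent observations. Without control library 3, 22 of the 48 genes fell, beside 2595 of all 11536 genes tested. Without treated library 15, 35 of the 48 fell, beside 3089 of all genes.

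**Figure D5:**
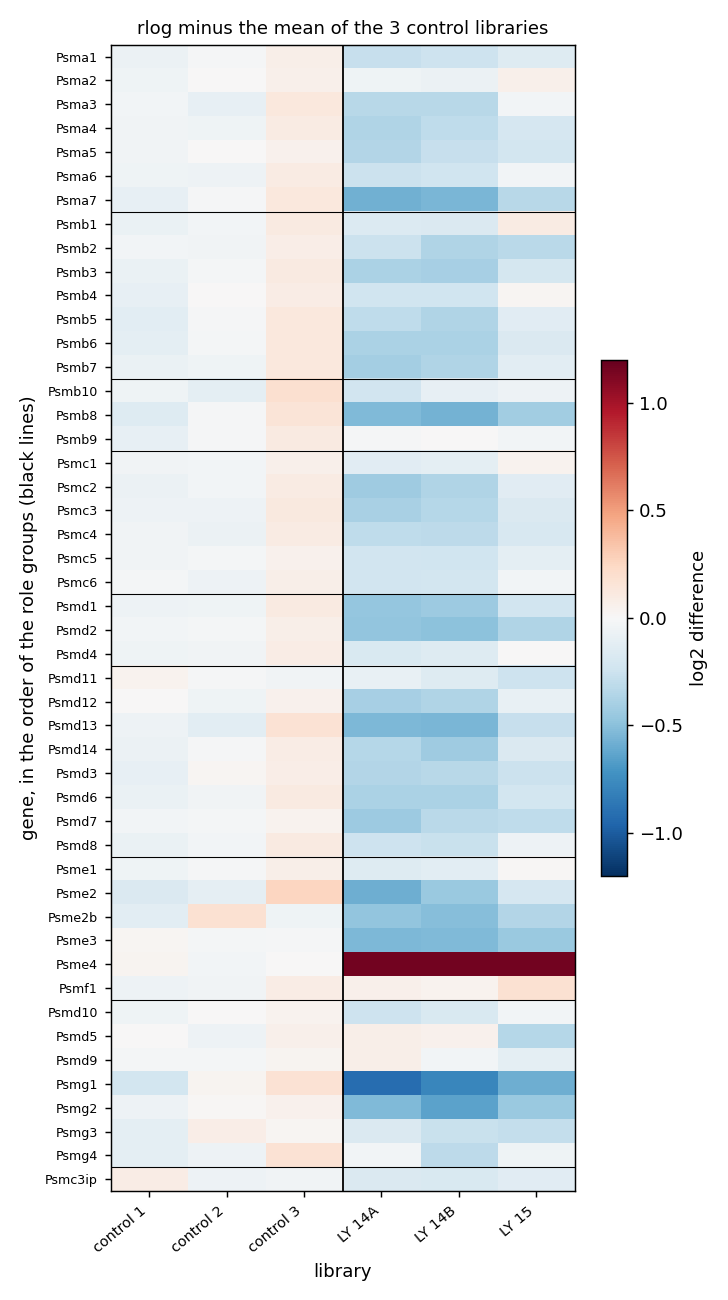
Each proteasome gene (rows, ordered by role group between black lines) in each of the 6 libraries (columns), shown as its rlog value minus the mean of the 3 control libraries (color, log2 scale from −1.2 to 1.2). Control library 3 is faintly red and treated library 15 paler blue than 14A and 14B in most rows, and the row of *Psme4* is dark red in all 3 treated libraries.

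Levels were compared between role groups per kilobase of the longest coding transcript. By their medians the rings, base and lid were the most abundant in control libraries, and the assembly chaperones were lowest of these groups in control and treated libraries. In treated libraries the median of the activators with the inhibitor lay above that of the lid. That group holds 6 genes, and *Psme4*, which rose, was among the middle values that set its median. *Psme1*, *Psme2*, *Psme3* and *Psme2b* had lower levels in treated libraries, and *Psmf1* went from 7.99 to 8.08. Median control levels (log2 per kilobase) were 11.41 for the beta ring, 11.13 for the alpha ring, 11.01 and 10.96 for the non-ATPase subunits and ATPases of the base, 10.65 for the lid, 10.24 for the activators with the inhibitor, 9.50 for the immunoproteasome subunits and 8.63 for the assembly chaperones. In treated libraries the same medians were 11.10, 10.91, 10.64, 10.73, 10.39, 10.62, 9.44 and 8.16. *Psma6* was the highest gene on this scale and *Psme2b* the lowest (6.49 in control). *Psme4*, with a transcript of 6491 bases, had a level of 9.34 in control and 10.50 in treated cells, and moved from position 38 to position 26 of the 48 genes. The levels depend on the transcript chosen.

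The wider pathway was described with a list of 50 genes that act with the proteasome but do not carry its gene name, of which 48 were tested. Of these, 15 fell, 9 rose and 24 did not pass the threshold, with a median of −0.03. The share that fell, 31.2%, was near that of all genes tested (25.3%, or 30.5% at a mean of at least 8), and 9 of 48 rose where 24.8% of all genes did. Among 11 cofactors and subunits with other names, 5 fell (45.5%, against 25.3% of all genes) and 1 rose (9.09%, against 24.8%). *Uchl5*, a deubiquitinase bound to the 19S particle, went from 10.97, 11.04 and 11.19 to 10.44, 10.42 and 10.56 (log2 difference −0.60, adjusted p = 0.00026, limma). *Zfand5*, which encodes an activator of the 26S proteasome, rose by 0.36 (adjusted p = 0.00048). The ubiquitin receptor *Adrm1* (−0.19) and the small lid subunit *Sem1* (−0.37) also fell, and the 20S maturation factor *Pomp* had a difference of −0.13 that did not pass the threshold (adjusted p = 0.069).

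Of 10 genes for ubiquitin shuttles and the VCP unfoldase with its cofactors, 5 fell (50%, against 25.3% of all genes) and 2 rose (20%, against 24.8%). The shuttle gene *Ubqln4* had the lowest difference (−0.66, adjusted p = 1.7e-05, limma), *Vcp* itself fell by 0.26, and *Faf2*, a VCP cofactor of the endoplasmic reticulum, rose by 0.38 (adjusted p = 0.0024). Of 6 ubiquitin and E1 enzyme genes, *Uba6* fell (−0.31, so that 16.7% fell against 25.3% of all genes) and the other 5 did not pass the threshold. Among 5 genes of the SCF ligase that marks β-catenin, the scaffold *Cul1* fell (−0.44, adjusted p = 0.00027), which is 20% against 25.3% of all genes. The substrate receptors *Btrc* (0.04) and *Fbxw11* (0.03) did not pass the threshold. *Nfe2l1*, which encodes NRF1, the factor that raises transcription of proteasome genes when proteasome activity is short, was at 10.48, 10.48 and 10.40 in control and 10.45, 10.62 and 10.32 in treated libraries (0.02, 95% interval −0.17 to 0.20, adjusted p = 0.89). Of the 6 tested genes listed for transcription of proteasome genes, *Nfe2l1* among them, 1 fell (16.7%, against 25.3% of all genes). Of the same 6, 2 rose (33.3%, against 24.8%). *Ddi2*, the protease that activates NRF1, fell (−0.27), and *Nfe2l2* (0.26) and *Mafk* (0.27) rose.

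Peptide loading of MHC class I is the step after the immunoproteasome. Its list of 10 genes also held the transcriptional regulators *Irf1* and *Nlrc5*, which are not loading genes. Of the 10 genes 4 rose, *Irf1* among them (40%, against 24.8% of all genes), and 2 fell (20%, against 25.3%), with a median of 0.23. *Irf1*, a transcription factor of the interferon response that is known to drive immunoproteasome genes, was at 9.08, 9.20 and 9.19 in control and 10.61, 10.58 and 10.56 in treated libraries. It rose by 1.43 on the log2 scale (adjusted p = 7.2e-07, limma), whereas *Psmb8* fell and *Psmb9* and *Psmb10* did not pass the threshold. *B2m*, the light chain of class I, rose by 0.72 (adjusted p = 0.00021), and *Tapbp*, which bridges class I to the peptide transporter, rose by 0.43 (adjusted p = 0.0014). *Calr*, a chaperone of class I folding, fell by 0.51 (adjusted p = 0.00053). The transporter genes *Tap1* (0.06) and *Tap2* (0.15, adjusted p = 0.055) did not pass the threshold.

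For reference, *Ctnnb1* fell by 0.35 (adjusted p = 0.00030, limma), *Gsk3b* had a difference of 0.13 (adjusted p = 0.051) and the β-catenin target *Axin2* rose by 1.67 (adjusted p = 1.5e-05).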

How the data were processed

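Libraries of polyadenylated RNA were made with a stranded kit and sequenced as paired ends. The authors quantified reads with Salmon, aligned them with STAR to GRCm38 with GENCODE annotation and used DESeq2 1.30.1. They deposited a table of regularized log2 (rlog) values for 41444 genes, without read counts, which leaves sequencing depth unknown and allows no count test or counting interval. Of 12 columns, 3 were matched by name to ERT2 control and 3 to LY2090314-treated cells. The other 6 combine Cre and LY in their names in different spellings and were not used.

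Symbols were found for 41157 identifiers. Genes with a mean of at least 3 over the 6 libraries (11536) entered a fit with limma 3.58.1 (R 4.3.3), using a mean-variance trend and Benjamini-Hochberg adjustment with a threshold of 0.05. The script was tested on simulated data in which 200 of 11536 genes were changed. It recovered 18% of log2 changes of 0.25 and 56% of 0.5, and 6.47% of the calls were unchanged genes. Small changes were thus often missed in the simulation, in which far fewer genes changed than passed the threshold here. Members and lists were chosen with earlier results of these data known. Values per library are given for the catalytic subunits, the activators, and the 5 largest rises (1 was found) and falls past the threshold without overlap. Other members are given by role with up to 3 examples, and pathway genes by the 5 largest rises and falls, and further genes named were chosen after their values were seen. A gene among those falls and a marker gene are not reported here. Positions are from GENCODE vM21 on GRCm38 and promoters from RefSeq on GRCm38.p6.

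Alternatives were a fit without the trend, robust moderation, the mean limit set to 5 or removed, quantile normalization, centring on the median, a threshold of 0.01, leaving out each library, and exon length for the pairs. A limit of 8, leaving out *Psmc3ip* and *Psme2b*, and counting libraries 14A and 14B as 1 sample for all genes were added after seeing the data.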

Additional observations from a re-analysis of the deposited data

How the results depend on the processing

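Across 15 alternatives no difference of a proteasome gene past the threshold changed sign, 27 of the 48 genes kept their side of the threshold throughout and 21 did not. The number that fell, 29, was 17 at an adjusted p under 0.01 (limma), where 2033 of all 11536 genes were lower. It was 20 with libraries 14A and 14B counted as 1 sample, where 2465 of all genes were lower. With each library left out in turn it was 20 to 35, and the median difference lay between −0.31 and −0.22. In these leave-one-out fits 2405 to 3089 of all genes were lower and 2329 to 3139 higher, and 1 proteasome gene was higher. *Psme4* stayed between 1.13 and 1.17 and *Psmg1* between −0.86 and −0.67 in all alternatives. With exon length in place of transcript length, the control levels were −1.84 for *Psmb8* minus *Psmb5*, −2.16 for *Psmb9* minus *Psmb6* and −0.73 for *Psmb10* minus *Psmb7*, since the lengths differ, and the changes were the same.

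With each library left out, the control levels of the pairs lay between −0.79 and −0.77, −1.96 and −1.94, and −1.94 and −1.87, and their changes between −0.26 and −0.22, 0.25 and 0.37, and 0.12 and 0.21. The median over all genes moved to no lower than −0.04 (quantile normalization). No paired analysis was possible because the numbers in the table's columns are not the replicate numbers of the labels. Without read counts, the limits set by sequencing depth could not be assessed.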
